A study of Mus musculus with 2 samples.

Results

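Npr3 cells were defined here as barcodes chosen by 3 genes of the rule: at least 1 UMI (a counted RNA molecule) of Cdh5, which encodes the VE-cadherin of endothelial junctions, at least 2 UMIs of Npr3, and fewer than 3 UMIs of Stab2, a scavenger receptor of liver sinusoids. Barcodes also had 2000 to 75000 gene UMIs, more than 500 genes, and mitochondrial and haemoglobin shares each under 5%. These limits kept 14348 barcodes, of which 8318 held a Cdh5 UMI and 392 were Npr3 cells, 4.71% of the Cdh5 barcodes and 2.73% of all. They were compared with the 7302 Cdh5 barcodes that held no Npr3 UMI, called Npr3-free below. A further 598 Cdh5 barcodes held 1 Npr3 UMI, and 26 met the Npr3 limit but had 3 or more Stab2 UMIs and were left out.

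The barcodes came from 1 10x Genomics library of cells from hearts and livers of C57BL/6 pups at P6-P7, 3 days after a single dose of 4-hydroxytamoxifen at 40 mg/kg on postnatal day 3. Antibody hashtags (barcoded antibodies) marked 6 groups before pooling: Control, iSuRe-Cre and iSuRe-HadCre heart, and the same 3 for liver. A recombined iSuRe-Cre allele expresses membrane Tomato (MbTomato) and Cre lastingly and together. In iSuRe-HadCre, Cre comes on first together with the recombinase FlpO, which then removes both genes and turns MbTomato on, so Tomato there marks cells that had Cre before. The labels give 1 genotype for the whole library, Cdh5-CreERT2 + iHadSuRe-Cre, where Cdh5-CreERT2 is a tamoxifen-dependent Cre driven in endothelial cells, and the sorted cells were CD31+ MbTomato+. That the iSuRe groups carried floxed Notch1 was taken from the study's description of this experiment and not from the labels, the genotype of Control is not stated in the sources used here, and neither is the number of pups per group. Each hashtag group is therefore 1 sample: cells of a sample are not replicates, no test was possible, and every interval below is an exact 95% interval for counting error only.

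The endocardium is the endothelium that lines the heart chambers. It forms the valves through a transition to mesenchyme, gives rise to part of the coronary vessels, and signals to the myocardium, for example through neuregulin 1. Npr3 encodes the natriuretic peptide clearance receptor NPR-C, which removes natriuretic peptides from the extracellular space and lacks the guanylyl cyclase domain of NPR-A and NPR-B, and it is widely used to mark endocardium in mouse heart. In the GENCODE annotation of GRCm38, Npr3 lies on chromosome 15 from 11839896 to 11907287 on the minus strand and is protein coding.

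Npr3 cells as a whole only partly bore out the name endocardial. Summed over all 392, the endocardial list of 12 genes took 1560 of every 1000000 gene UMIs (CPM), against 281 CPM in Npr3-free barcodes. Of the 11 genes of this list with 200 or more UMIs over both sets, 8 were at least 2 times as high in Npr3 cells and none was at or under 0.5 times, with a median ratio of 4.78. Over all 12196 genes tested, 4.64% were at least 2 times as high, 4.79% were at or under 0.5 times, and the median ratio was 1.05. Hepatocyte genes were also higher, at 6576 CPM for a list of 6 against 1432 CPM, and all 6 passed the fold. In single Npr3 cells the hepatocyte list took from 0% to 17.3% of UMIs, with a median of 0.00219%. The highest share lay in cluster 5 (described below), where Ttr, a gene of the list, was at 7128 CPM and Alb at 116 CPM. Of the 10169 Ttr UMIs in Npr3 cells, 4775 came from 1 cell. In cluster 8, led by Afp, Apoa2 and Alb, the highest share was 8.91%. By heart, it stood at 13253 CPM in Npr3 cells of Control, 3359 CPM in iSuRe-Cre and 44.1 CPM in iSuRe-HadCre, and 16 Npr3 cells (4.08%) had 1% or more of their UMIs in it. Macrophage and erythroid lists were lower than in Npr3-free barcodes, at 54.9 against 270.4 CPM and 12.4 against 37.7 CPM. The set is called Npr3 cells below for this reason, and not endocardium.

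Npr3 cells were deeper than Npr3-free barcodes, with a median of 10556.5 UMIs and a range from 2140 to 70948, against a median of 5335. A rule that asks for 2 UMIs of 1 gene selects deeper barcodes, so levels are given as shares of summed UMIs. Npr3 itself, which chose the cells, stood at 540.5 CPM in them, with a median of 4 and a highest count of 140 UMIs per cell. The counts were skewed: 131 cells held exactly 2 Npr3 UMIs, 60 held 3, and 89 held more than 10. In barcodes of 10 to 100 UMIs, taken as free RNA, Npr3 made up 18 of 922778 UMIs, or 19.5 CPM. Npr3 UMIs were also found outside the endothelium: 35.6% of 87 hepatocyte-type barcodes without Cdh5 (median 11820 UMIs) and 5.92% of 3918 globin-rich barcodes without Cdh5 (median 3411.5 UMIs) had an Npr3 UMI. Thinned to 2000 UMIs each, these shares were 6.0% and 3.4%, and at least 2 Npr3 UMIs were seen in 20.7% and 0.766% of those barcodes, so the share of Npr3 cells among Cdh5 barcodes lay between these values. Whether hepatocytes carry Npr3 RNA of their own was not tested.

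The summed endocardial list, though not each gene of it, was higher in each bin of Npr3 UMIs than in the one before. The hepatocyte list was higher up to 3 UMIs and nearly absent at 7 or more. Among Cdh5 barcodes with fewer than 3 Stab2 UMIs, the endocardial list stood at 275 CPM in those without Npr3 and 386 CPM in the 568 just outside the limit, with 1 Npr3 UMI. Just inside, in the 131 with 2 UMIs, it was 548 CPM. Further inside it was 776 CPM at 3 UMIs, 1298 CPM at 4 to 6, and 3081 CPM in the 130 cells with 7 or more. The hepatocyte list was at 1612 CPM without Npr3, 6223 CPM at 1 UMI, 8626, 11002 and 10384 CPM at 2, 3 and 4 to 6 UMIs, and 45.9 CPM at 7 or more. Cells near the limit were thus of mixed make-up, and those with many Npr3 UMIs held the endocardial genes at their highest level and almost no hepatocyte RNA. Of the cells with a single hashtag, 75% at 2 UMIs and 90.9% at 7 or more carried a heart hashtag, against 62.4% of the barcodes with none. The bins were chosen after the values were seen and Npr3 is part of the rule, so this is a description.

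**Figure D1:**
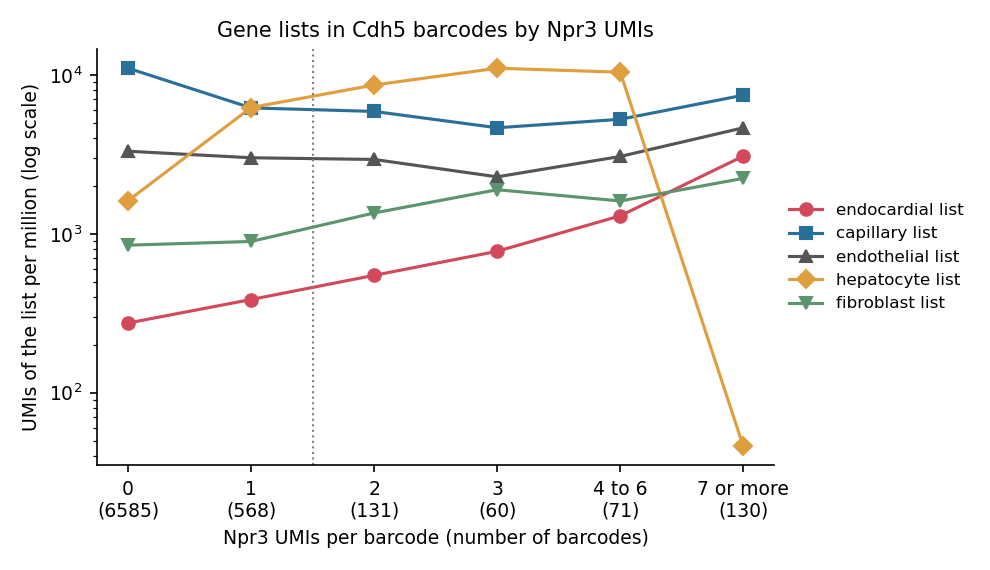
Summed level of 5 gene lists (CPM, log axis) in Cdh5 barcodes with fewer than 3 Stab2 UMIs, by the number of Npr3 UMIs, with the number of barcodes in brackets; the dotted line marks the limit of the rule. The endocardial list climbs from 275 CPM without Npr3 to 3081 CPM at 7 or more UMIs, where the hepatocyte list is at 45.9 CPM after 10384 CPM at 4 to 6.

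Npr3 cells were most frequent in the iSuRe-Cre heart. A hashtag call was available for 178 of the 392 (45.4%): 146 were called negative for all 6 hashtags, 67 were called doublets and 1 had no call. The rule used no hashtag, but the split by group is not fully independent of it. Its Stab2 limit was set on Npr3 cells and not on the Cdh5 barcodes they are a share of. Its limit of 2 Npr3 UMIs is met more easily in deeper barcodes, and depth differed between groups. In heart, 32 of 713 Cdh5 barcodes of Control were Npr3 cells, which is 4.49% (exact Clopper-Pearson interval 3.09 to 6.28%). In the iSuRe-Cre heart the count was 80 of 548, or 14.6% (11.7 to 17.8%). The iSuRe-HadCre heart had 33 of 545, or 6.06% (4.20 to 8.40%). The iSuRe-Cre share was 3.25 times that of Control (2.13 to 5.07) and 2.41 times that of iSuRe-HadCre (1.59 to 3.73), both beyond counting error, whereas the iSuRe-HadCre to Control ratio of 1.35 had an interval of 0.804 to 2.27. Npr3-free barcodes of the iSuRe-Cre heart were also deeper, with a median of 12298 UMIs against 6044 in Control and 6235.5 in iSuRe-HadCre. With every barcode thinned to 5000 UMIs, which left out 384 of 1189 shallower barcodes of Control, 144 of 628 of iSuRe-Cre and 265 of 721 of iSuRe-HadCre, with or without Cdh5, the shares were 3.47%, 12.3% and 4.90% of those that still had Cdh5, and the iSuRe-Cre share was 3.55 times that of Control and 2.51 times that of iSuRe-HadCre. Thinned to 2000 UMIs, with none left out, the shares were 1.12%, 6.92% and 1.43%. The share of the iSuRe-Cre heart was thus the highest of the 3 at both equal depths. What animals of 1 genotype differ by is not known here, so these ratios compare 3 samples.

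In liver the order was different. Control had 19 Npr3 cells among 254 Cdh5 barcodes (7.48%, 4.56 to 11.4%) and iSuRe-HadCre 9 among 311 (2.89%, 1.33 to 5.42%). The lowest share was that of iSuRe-Cre, with 5 among 892 (0.561%, 0.182 to 1.30%). The hashtag of the Control heart was weak, with a median of 5 UMIs in its Npr3 cells, against 24 for iSuRe-Cre and 17 for iSuRe-HadCre. In liver the medians were 14 for Control, 179 for iSuRe-Cre and 8 for iSuRe-HadCre. With at least 25 UMIs of the hashtag required, the shares in heart were 3.67%, 13.0% and 5.96% and those in liver 17.8%, 0.557% and 1.85%, in the same order. The heart share of Control was also the most sensitive to large barcodes: with fewer than 6000 genes required it was 1.83%, against 13.0% and 5.14% in the iSuRe-Cre and iSuRe-HadCre hearts. At 7 or more Npr3 UMIs the counts were 9, 52 and 9 cells in the 3 hearts, in the order Control, iSuRe-Cre and iSuRe-HadCre.

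**Figure D2:**
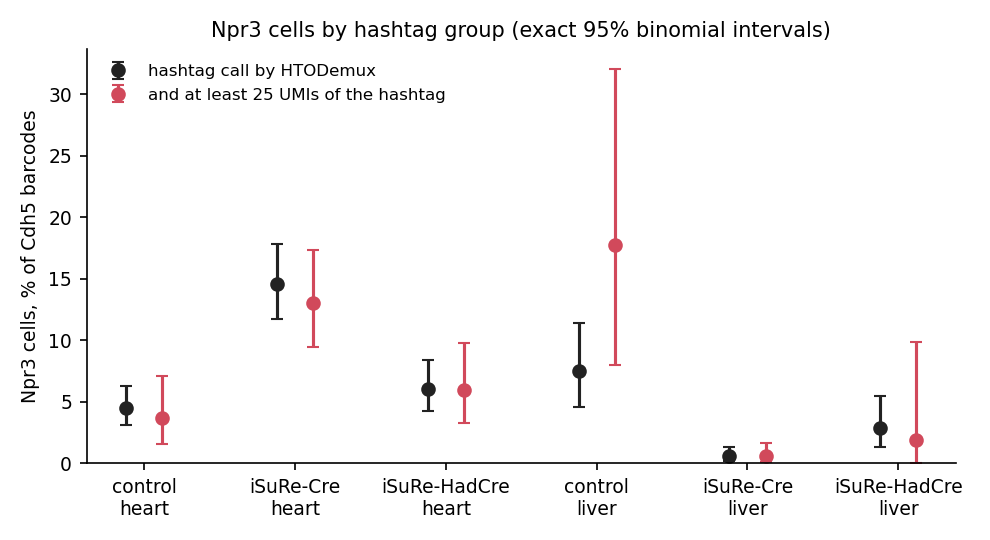
Share of Npr3 cells among Cdh5 barcodes (percent) in each of the 6 hashtag groups, by hashtag call alone and with at least 25 UMIs of the hashtag; bars are exact 95% binomial intervals. The iSuRe-Cre heart (14.6%) lies above the Control (4.49%) and iSuRe-HadCre (6.06%) hearts, and the iSuRe-Cre liver is the lowest group at 0.561%.

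Within each heart, Npr3 cells were compared with Npr3-free barcodes of the same hashtag. Hepatocyte RNA was present on both sides, at 13253 against 1302 CPM for the list in Control, 3359 against 281.1 CPM in iSuRe-Cre and 44.1 against 2714 CPM in iSuRe-HadCre. Of 10754 genes with 100 or more UMIs, 195 (1.81%) were at least 2 times as high in all 3 hearts and 245 (2.28%) were at or under 0.5 times in all 3. Without the Npr3 cells that had 1% or more of their UMIs in hepatocyte genes, the counts were 236 and 260. On the endocardial list, 7 of the 10 genes tested were higher in all 3 hearts and none was lower in all 3. Values for the 3 hearts stand below in the order Control, iSuRe-Cre, iSuRe-HadCre, and the median ratios of the list were 5.56, 8.85 and 5.52.

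Tmem108, a transmembrane protein gene of that list, was the first by the smallest change over the 3 hearts. Its level was 225 CPM in Npr3 cells of Control against 17.4 CPM in Npr3-free barcodes, 777 against 29.3 CPM in iSuRe-Cre, and 492 against 20.7 CPM in iSuRe-HadCre. The ratios were 12.9 (9.92 to 16.9), 26.5 (22.8 to 31.1) and 23.8 (18.5 to 30.8), so Npr3 cells stood above Npr3-free barcodes in every heart. Cgnl1, which encodes the junction protein paracingulin, was 5.11, 9.55 and 4.55 times as high in the same order. Both were also far from the capillary type of Npr3-free endothelium, defined by Tcf15 and Fabp4 UMIs (2329 barcodes), with ratios of 21.3 for Tmem108 and 6.27 for Cgnl1.

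Transcription factors of heart development were higher as well. Hand2, a basic helix-loop-helix factor, was 6.02, 12.1 and 9.78 times as high in the Control, iSuRe-Cre and iSuRe-HadCre hearts. Gata4, a zinc finger factor, was at 32.4, 104 and 69.8 CPM in Npr3 cells and at 4.98, 7.69 and 7.83 CPM in Npr3-free barcodes. Against all Npr3-free barcodes of the library, livers included, the Gata4 ratio was only 1.92, which is why the within-heart ratios of 6.51, 13.5 and 8.91 are given for it. Gata6 was 1.84, 7.25 and 4.54 times as high, so it passed the fold in both iSuRe hearts and not in Control. Nfatc1, a factor needed for valve formation, was 1.05 times as high in Control (0.638 to 1.65) and 2.39 and 2.55 times in the others. Not every gene of the list went this way: Tbx20 was 12.6 times as high in Control, on 11 UMIs, but at 1.77 times in iSuRe-Cre and 0.303 times (0.00736 to 1.86) in iSuRe-HadCre, on 10 and 1 UMIs. Hapln1, a hyaluronan link protein gene, was at 0.683 times over the library (0.532 to 0.865).

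Further genes were named by rank over the 3 hearts. Mgp, an inhibitor of matrix calcification, was at 558, 1798 and 1036 CPM in Npr3 cells of the 3 hearts, 5.77, 20.1 and 6.70 times the level of Npr3-free barcodes. Inhba, which encodes the subunit of activin A, was 20.9, 11.9 and 8.50 times as high. In all 3 hearts the intervals of these ratios lay above 2. A further 10 of the 15 highest were Chrm3, a muscarinic acetylcholine receptor (23, 16.4 and 10.5 times), Pdlim3, Gsta4, Cdh11, Igfbp5, Mfap5, Epha7, Rasgef1b, Col5a2 and Smoc1, whose lowest ratio in any heart was 4.41, for Col5a2 in Control.

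**Figure D3:**
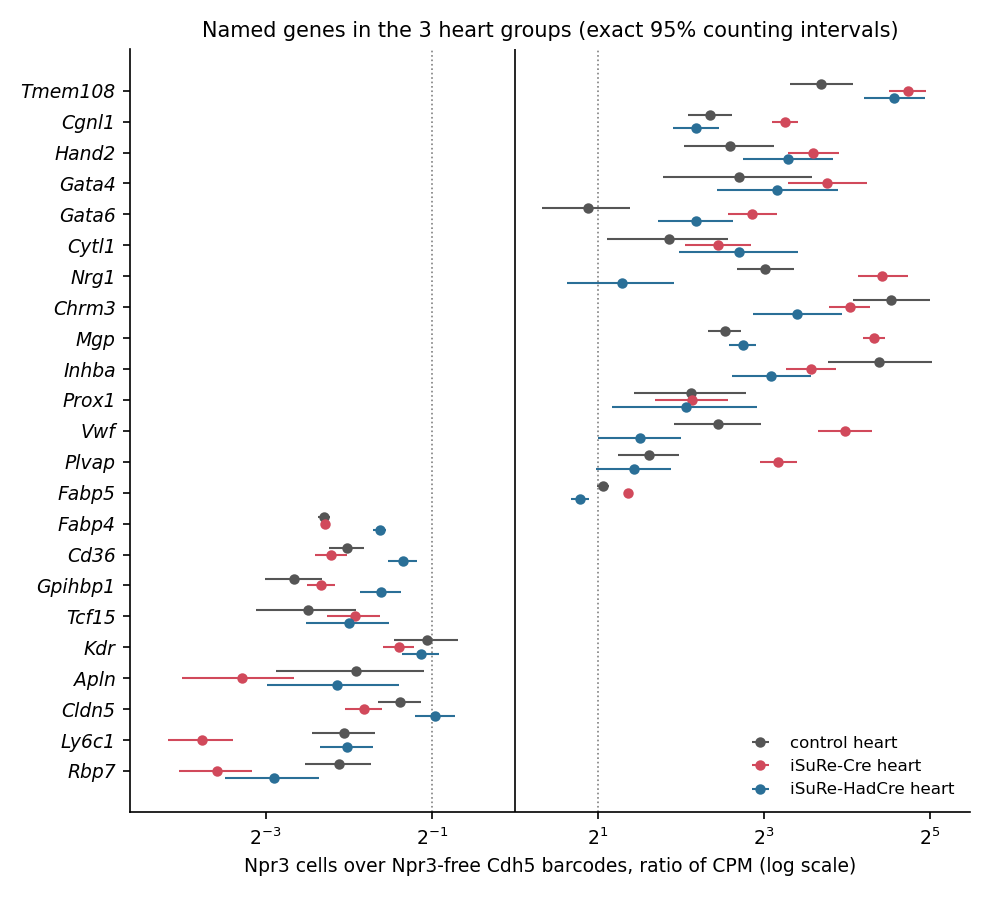
Ratio of CPM in Npr3 cells over Npr3-free Cdh5 barcodes (log axis) for named genes in the Control, iSuRe-Cre and iSuRe-HadCre hearts; bars are exact 95% counting intervals, the solid line marks 1 and the dotted lines 0.5 and 2. Tmem108, Hand2 and Gata4 lie to the right in all 3 hearts and Fabp4, Tcf15 and Rbp7 to the left.

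Capillary genes were low in Npr3 cells. Of the 12 genes of the capillary list, 9 were at or under 0.5 times the Npr3-free level over the library, and 8 were so in all 3 hearts, with median ratios of 0.242, 0.202 and 0.38. Tcf15, a transcription factor of heart capillary endothelium, was at 42.7, 66.0 and 66.1 CPM in Npr3 cells of the 3 hearts against 239, 251 and 263 CPM. Fabp4, a fatty acid binding protein, was at 0.204, 0.205 and 0.324 times, and Gpihbp1, which carries lipoprotein lipase across the capillary wall, at 0.159, 0.199 and 0.328 times. Fabp5, a second fatty acid binding protein on the list, went the other way, at 2.09, 2.57 and 1.73 times. The 10 lowest genes by rank held Rbp7, Ly6c1, Btnl9, Tcf15, Igfbp7 and Adm, and besides these S100a8, S100a9, Stfa1 and Tyrobp, which are known from neutrophils and other myeloid cells. Of S100a8, Npr3 cells held 4, 15 and 9 UMIs in the 3 hearts. Even so, 85 Npr3 cells (21.7%) met the UMI criterion of the capillary type.

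Of the 12 pan-endothelial genes, Plvap, the diaphragm protein of fenestrae and caveolae, was higher over the library and Kdr and Robo4 were lower. Plvap was 3.07, 9.02 and 2.70 times as high in the 3 hearts. Kdr, the main VEGF receptor, was at 102, 195 and 331 CPM in Npr3 cells against 213, 514 and 723 CPM in Npr3-free barcodes. These are ratios of 0.48, 0.38 and 0.457, so Kdr was lower in Npr3 cells of each heart. Of the 8 genes of the VEGF pathway list none was higher, and Kdr, Flt4 and Pgf were lower. Pecam1 was at 1.21 times over the library, and 47 Npr3 cells (12%) had no Pecam1 UMI. Over the library the arterial list had Bmx and Gja5 higher of 10, and the venous list had Vwf higher of 7 and Aplnr and Ackr1 lower. No arterial gene was higher in all 3 hearts and 1 was lower in all 3. The median ratios of that list were 0.665, 0.404 and 0.678 in Control, iSuRe-Cre and iSuRe-HadCre. Gja5 was highest in cluster 6 (described below), at 628 CPM, against 4.19 and 1.26 CPM in clusters 1 and 2. Vwf, the von Willebrand factor gene, was 5.47, 15.7 and 2.85 times as high in the 3 hearts. Against the large-vessel type of Npr3-free endothelium, defined by Gja5 and Vwf UMIs (82 barcodes), Npr3 cells had 30.2 times the Tmem108 level (lower bound 17.3) and 0.398 times the Fabp4 level, but a Gata4 ratio of 1.24 whose lower bound was 0.921.

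Other genes of the natriuretic peptide system did not follow Npr3. Of the 7 tested, Prkg1, the cGMP-dependent protein kinase, was the only one at least 2 times as high, and Pde2a, a phosphodiesterase of cyclic nucleotides, was at 0.318 times. Prkg1 was at 539, 467 and 518 CPM in Npr3 cells of the 3 hearts, 3.01, 3.8 and 4.07 times the Npr3-free level. Npr1, which encodes the guanylyl cyclase receptor NPR-A, was at 0.46, 0.936 and 1.25 times in the 3 hearts. Npr2, the receptor of C-type natriuretic peptide, was at 1.14 times over the library, with an interval of 0.857 to 1.50. The ligand gene Nppa had too few UMIs to be tested: 44 over all Npr3 cells, 84.1% of them in 1 cell. Corin, the protease that processes pro-ANP, was also under the UMI minimum, with 89 UMIs in Npr3 cells and a ratio of 11.4, 38.2% of them in 1 cell.

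Among signals known to act on heart muscle, Nrg1, Bmp6, Igf2 and Wnt4 were at least 2 times as high over the library and Bmp2 and Apln were at or under 0.5 times, of 14 tested. Of 13 tested in the hearts, 2 were higher in all 3 and 3 were lower in all 3. Nrg1, neuregulin 1, was at 222, 373 and 53.3 CPM in Npr3 cells of the 3 hearts against 27.4, 17.3 and 21.7 CPM. All 3 ratios passed the fold, at 8.10, 21.5 and 2.45, and the iSuRe-HadCre level was the lowest of the 3. Igf2, a growth factor gene, was 2.69, 6.41 and 2.72 times as high. Apln, the apelin peptide of angiogenic endothelium, was at 0.267, 0.102 and 0.228 times. On the valve endocardial list of 8, Wnt4, Prox1 and Cldn11 were higher over the library, and Prox1, a homeobox factor found in lymphatic and valve endothelium, was 4.36, 4.39 and 4.18 times as high in the 3 hearts. By cluster of Npr3 cells (described below), Prox1 was highest in cluster 8, which held the hepatocyte genes, at 211 CPM. In clusters 1 and 2 it was at 60.4 and 65.6 CPM. Wnt4 was highest in cluster 9, led by Krt14 and Krt5, at 216 CPM, against 94.7 and 15.1 CPM in clusters 1 and 2. Of the 252 Wnt4 UMIs in Npr3 cells, 61 (24.2%) came from 1 cell. Klf2, a flow-responsive factor of the valve endocardial list, was at 0.469, 1.46 and 0.666 times in the 3 hearts.

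Matrix genes were mixed. On the cardiac jelly and matrix list, Vcan, Fbln2 and Eln were higher of 16 tested and none was lower over the library. Vcan, the proteoglycan versican of cardiac jelly, was 2.52, 5.92 and 4.34 times as high in the 3 hearts, whereas Col4a1, a basement membrane collagen, was at 0.355, 0.314 and 0.437 times in them and at 0.558 times over the library. The fibroblast list had 5 of 8 genes higher over the library and the same number higher in all 3 hearts. Dcn, a small matrix proteoglycan, was 5.21, 6.73 and 3.02 times as high and Postn 3.37, 5.71 and 3.88 times. None of the 13 genes of the endothelial-to-mesenchymal transition list passed the fold in either direction over the library. Over the library the mural list stood at 40.8 against 74.7 CPM and the cardiomyocyte list at 93.1 against 155 CPM. In the hearts the direction differed: the cardiomyocyte list was at 42.7 against 105 CPM in Control but at 146 against 89.3 CPM in iSuRe-Cre and 156 against 66.5 CPM in iSuRe-HadCre, and the mural list at 58.0 against 53.0, 19.7 against 132 and 49.6 against 53.6 CPM. On the cell cycle list of 15, Ccnd1 alone passed the fold, at 0.472 times. Of the arrest genes, Cdkn2b was higher, at 3.13 times, and Cdkn1a, which encodes p21, was lower, at 0.434 times.

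Reclustering the 392 cells, without Npr3, Cdh5, Stab2, Notch1 and the transgenes, gave 10 clusters, of which clusters 1 and 2 carried the endocardial genes. The clustering and its settings were chosen after values had been seen, and since it was made from these same cells, the values that follow are descriptions. Cluster 1 held 86 cells and had 9 of the 12 endocardial genes at 2 or more times their level in the other Npr3 cells, and cluster 2 held 77 cells and had 8. No gene of the list was among the 10 leading genes of either. They are called endocardial-like here and hold 163 Npr3 cells (41.6%). The share of endocardial-like cells was 10.7% among Npr3 cells with 2 Npr3 UMIs and 81.5% among those with 7 or more. Cluster 6, with 16 cells led by Gja5, Thsd7a and Plac8 and with Vwf among its leading genes, had 4 of the 12 and was left out by a limit of 8 genes set after these counts were seen. It held 7 cells of the Control liver, 1 of the iSuRe-Cre liver, 6 doublet calls and 2 negative calls.

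The 2 endocardial-like clusters differed from each other. Cluster 1 was led by Nts (neurotensin), Inhba, Kcnc2 and Mfap5, with Inhba at 515 CPM against 61.8 CPM in cluster 2 and Igfbp5 at 2139 against 628 CPM. Leading genes of cluster 2 included Tmtc1, Tmem158 and Tm4sf1, with Nrg1 at 1091 against 143 CPM in cluster 1, Vwf at 496 against 135 CPM and Npr3 at 1888 against 714 CPM. Tmem108 was high in both, at 935 and 1154 CPM, and so was Hand2, at 285 and 323 CPM. Fabp4 stood at 3305 CPM in cluster 1 and 586 CPM in cluster 2. Cluster 1 held 7 cells of the Control heart, 29 of iSuRe-Cre and 14 of iSuRe-HadCre, and cluster 2 held 3, 40 and 1, so most of cluster 2 with a heart hashtag came from 1 sample, and the cluster cannot be told apart from that sample.

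The other 229 Npr3 cells fell into 8 clusters with few endocardial genes. Cluster 3 (64 cells) had 5 of 8 fibroblast, 5 of 6 mural and 5 of 6 epicardial genes at 2 or more times the level in the other Npr3 cells, and a median of 23120.5 UMIs. Ibsp, its leading gene, was singled out after its values were seen: 3222 of its 3250 UMIs in Npr3 cells came from 1 cell. Cluster 4 (55 cells, led by Hpgd, Scn7a and Ace) had 9 of 10 arterial, 8 of 12 endothelial and 7 of 12 capillary genes at that level. It also had 10 of 16 Notch pathway and 5 of 8 VEGF pathway genes there. Cldn5 in it was at 1311 CPM, against 76.3 and 24.0 CPM in clusters 1 and 2. Cluster 5 (54 cells, led by Fabp7, Dcc and Htr2c) had all 6 macrophage and all 3 neural genes, and cluster 7 (12 cells) had 12 of 15 cell cycle genes. The macrophage list took 0% of UMIs in the median cell of cluster 5. Of the 81 C1qa UMIs in Npr3 cells, 57 (70.4%) came from 1 cell. Cluster 8 (11 cells, led by Afp, Apoa2 and Alb) had all 6 hepatocyte genes and a median of 54653 UMIs. Cluster 9 (9 cells, led by Krt14 and Krt5) had all 3 keratinocyte genes, and cluster 10 (8 cells) was led by S100a9 and S100a8. The tissue of many of these barcodes is not given by a hashtag. Calls negative for all hashtags numbered 27, 30 and 27 in clusters 3, 4 and 5. In clusters 7, 8, 9 and 10 there were 8, 6, 8 and 5 such calls. What these barcodes are, single cells of another kind or mixtures with an endothelial cell, was not tested. In all, 64 Npr3 cells held exactly 1 Cdh5 UMI.

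**Figure D4:**
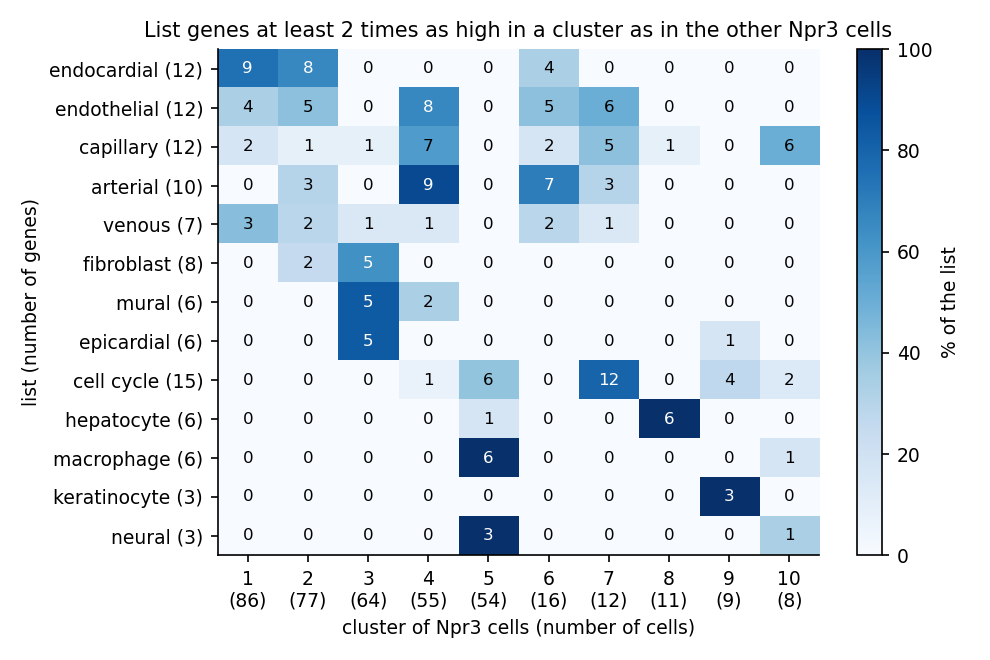
Number of genes of each list that were at 2 or more times their level in the other Npr3 cells, for the 10 clusters of Npr3 cells (number of cells in brackets); the shade gives the number as a percent of the list. Clusters 1 and 2 hold 9 and 8 of the 12 endocardial genes, while the hepatocyte, macrophage and keratinocyte lists are each complete in 1 cluster. In cluster 5, complete for the macrophage list, the median cell has 0% of UMIs in that list.

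The endocardial-like clusters were named by genes of the endocardial list, so high levels of those genes in them follow in part from that choice. Against all Npr3-free Cdh5 barcodes the levels in these cells were 43.1 times for Tmem108, 21.9 times for Hand2, 10.2 times for Gata6, 4.58 times for Gata4, 3.94 times for Nfatc1 and 9.65 times for Nrg1. Pecam1 was at 2.07 times and Emcn, an endothelial sialomucin, at 3.14 times, while Cldn5 was at 0.126 times and Car4, a carbonic anhydrase of capillaries, at 0.098 times. Hepatocyte genes were near absent, with Alb at 8.56 CPM against 271 CPM and Afp at 22.7 against 486 CPM. Mki67, a proliferation marker, was at 127 CPM in cluster 1 and 2.52 CPM in cluster 2, against 127 CPM in Npr3-free barcodes, and the cell cycle list also differed between these clusters, at 1941 CPM in cluster 1 and 295 CPM in cluster 2, against 2968 CPM in Npr3-free barcodes.

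Npr3 cells of both iSuRe hearts had less Notch1 than those of the Control heart. Notch1, the receptor that the floxed allele targets, was at 71.7 CPM in Npr3 cells of Control (42 UMIs), 25 CPM in iSuRe-Cre (33 UMIs) and 34.9 CPM in iSuRe-HadCre (19 UMIs). The ratios to Control were 0.349 (0.215 to 0.565) and 0.487 (0.268 to 0.856). In Npr3-free barcodes of the same hearts the levels were 92.3, 11.2 and 20.5 CPM, with ratios of 0.122 (0.0945 to 0.155) and 0.222 (0.173 to 0.28). Free RNA held Notch1 at 19.5 CPM (18 UMIs), and its part in the levels of the iSuRe groups was not tested. Within the endocardial-like cells Control had 9 UMIs (96.0 CPM), iSuRe-Cre 21 UMIs (22.9 CPM) and iSuRe-HadCre 1 UMI (5.93 CPM), and the ratios were 0.239 (0.105 to 0.593) and 0.0617 (0.00141 to 0.446). The direction was thus the same in the 3 sets of cells, and the interval of the iSuRe-HadCre ratio was wide on so few UMIs. Where the reads lie in Notch1 relative to the floxed part was not analysed here. Of the 14 Notch pathway genes tested over the library, Lfng, a modifier of Notch receptors, was lower in Npr3 cells (0.489 times) and none was higher. Hes1, a Notch target, was at 81.2 and 114 CPM in the iSuRe-Cre and iSuRe-HadCre Npr3 cells and 102 CPM in Control, with ratios of 0.793 (0.573 to 1.11) and 1.11 (0.767 to 1.61).

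Among the transgene sequences, WPRE and Tomato were highest in Npr3 cells of the iSuRe-HadCre heart and no higher in iSuRe-Cre than in Control. WPRE, a viral RNA element of the reporter transcripts, was at 275 CPM in Npr3 cells of Control, 86.5 CPM in iSuRe-Cre and 830 CPM in iSuRe-HadCre, against 489, 81.8 and 1024 CPM in Npr3-free barcodes. In both kinds of cell iSuRe-HadCre was highest and iSuRe-Cre lowest, and free RNA held WPRE at 160.4 CPM. Tomato was at 42.7, 35.7 and 156 CPM in Npr3 cells of the 3 hearts and at 30.3 CPM in free RNA. Cre was at 13.6, 19.0 and 14.7 CPM on 8, 25 and 8 UMIs, and its iSuRe ratios to Control of 1.39 (0.608 to 3.57) and 1.08 (0.352 to 3.29) both include 1.

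**Figure D5:**
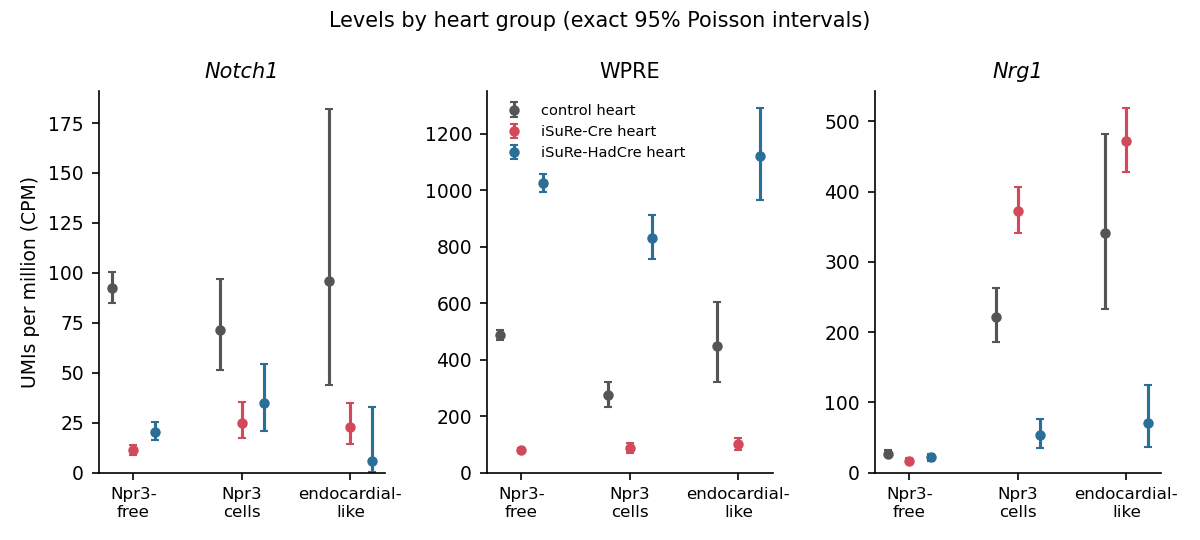
Levels (CPM) of Notch1, WPRE and Nrg1 in Npr3-free Cdh5 barcodes, in Npr3 cells and in the endocardial-like Npr3 cells of the 3 hearts; bars are exact 95% Poisson intervals. Notch1 is highest in Control in each set (92.3, 71.7 and 96.0 CPM), and Nrg1 in Npr3 cells is lowest in iSuRe-HadCre (53.3 CPM).

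Across 4731 genes with 100 or more UMIs in Npr3 cells of the hearts, 90 (1.9%) were at least 2 times as high in both iSuRe hearts as in Control and 89 (1.88%) were at or under 0.5 times in both. The 5 lowest by rank, Serpina1e, Afp, Serpinf2, Serpina6 and Apom, are all liver genes. Afp was at 6449 CPM in Control (3780 UMIs), 1219 CPM in iSuRe-Cre and 20.2 CPM in iSuRe-HadCre. Without the Npr3 cells that had 1% or more of their UMIs in hepatocyte genes it was at 37.4, 21.7 and 20.2 CPM, on 17, 27 and 11 UMIs, and the counts of genes became 48 and 55. Cluster 8 held 3 cells of the Control heart and 1 of iSuRe-Cre.

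The 5 highest were Iigp1, Crip1, Procr, Hspa1a and Hspa1b. Iigp1, an interferon-inducible GTPase, was at 42.7 CPM in Control, 150 CPM in iSuRe-Cre and 298 CPM in iSuRe-HadCre, with ratios of 3.52 (2.32 to 5.58) and 6.98 (4.56 to 11.1). In Npr3-free barcodes it was likewise higher, by 7.67 and 4.05 times. Hspa1a, an inducible heat shock protein, was 3.01 (1.89 to 5.01) and 4.61 (2.84 to 7.81) times as high as in Control, and Hspa1b 3.06 and 5.26 times. Crip1, a LIM domain protein gene, was 2.83 and 2.69 times as high, and Procr, the endothelial protein C receptor, 5.56 and 4.13 times. Within the endocardial-like cells, which are a smaller part of the Control Npr3 cells (31.2%) than of the iSuRe-Cre (86.2%) and iSuRe-HadCre ones (45.5%), Crip1 was at 1.00 (0.846 to 1.20) and 1.40 times and the Procr intervals both included 1. Iigp1 stayed above Control there, at 2.68 (1.20 to 7.42) and 2.50 (1.01 to 7.41), and Hspa1a was at 6.61 (1.79 to 55.1) and 8.06 (2.04 to 69.7) times on 2 UMIs in Control. Cluster 1 holds most of these cells in Control and iSuRe-HadCre, and cluster 2 in iSuRe-Cre.

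Kdr and Cdkn1a were also higher in the iSuRe groups. In Npr3 cells Kdr was 1.91 (1.43 to 2.57) and 3.23 (2.4 to 4.4) times the Control level, and in Npr3-free barcodes 2.41 and 3.39 times. Cdkn1a was at 42.7, 141 and 90 CPM in Npr3 cells of the 3 hearts, and at 137, 498 and 228 CPM in Npr3-free barcodes. Its ratios to Control in Npr3 cells were 3.31 (2.17 to 5.25) and 2.11 (1.28 to 3.57). Within the endocardial-like cells they were 1.45 (0.595 to 4.62) and 1.56 (0.530 to 5.52), both including 1, and with fewer than 6000 genes required they were 0.96 and 0.704. Nrg1 separated the 2 iSuRe hearts: its level was 1.68 times Control in iSuRe-Cre (1.38 to 2.05) and 0.24 times in iSuRe-HadCre (0.155 to 0.361). In the endocardial-like cells it was at 341, 472 and 71.1 CPM in Control, iSuRe-Cre and iSuRe-HadCre. Cluster 2, the cluster with more Nrg1, held 3, 40 and 1 of these cells, and its part in the Nrg1 difference was not tested.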

How the data were processed

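The deposited matrix held raw UMI counts of 2755147 barcodes, not normalized, which the authors had made with Cell Ranger 7.1.0 on GRCm38 plus the transgenes. It lists 21951 gene features, and 7 antibody or multiplexing tags that the labels tie to no condition stayed unused. For 19 names shared by more than 1 identifier, the identifier with the higher total was used.

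The haemoglobin limit removed 8867 barcodes. HTODemux (Seurat 5.3.0, centred log-ratio, quantile 0.99) was run on the 14299 barcodes with more than 4 hashtag UMIs; its doublet calls were kept among the Npr3 cells, as the rule takes any hashtag, and no other doublet caller was run. UMIs were summed per set and divided by the set's total (CPM, per 1000000 gene UMIs). Genes counted as past the fold at ratios of 2 or more or 0.5 or less, among genes with 200 UMIs over both sets, or 100 UMIs over the heart groups. A ratio against a set with no UMI was taken from a floor of 3 counts over that set. Sums have exact Poisson, shares exact binomial and ratios exact conditional 95% intervals. Shares of barcodes with an Npr3 UMI were thinned to the mean over all draws of 2000 UMIs, and shares of Npr3 cells to the mean of 200 seeded draws of 2000 or 5000 UMIs. Clusters are from the Leiden method in scanpy 1.11.5 on 15 principal components of 1500 variable genes with 15 neighbours and a resolution of 0.8, and a single setting was run. Ratios and intervals were checked on simulated counts with known folds.

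Named genes are genes of the 25 lists used, the genes of the rule, the transgenes, the 15 highest and 10 lowest by the smallest log2 change (10 CPM added) over the 3 hearts, and the 5 highest and 5 lowest over the 2 genotype comparisons; 1 of them is not reported here. The members, the lists and these rules were chosen with earlier results of these data known. Coordinates are from GENCODE M21 for GRCm38. Alternatives to the limits, the hashtag calls and the summing were computed and are given in the closing section. The study's limits on normalized Cdh5 and WPRE, and its removal of hashtag doublets, were not applied, since the rule replaces them.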

Additional observations from a re-analysis of the deposited data

Results flagged for a closer look

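The share of Npr3 cells among Cdh5 barcodes was higher than in Control for both alleles in heart and lower for both in liver, which is what drew attention to it. In the iSuRe-Cre groups it was 3.25 times that of Control in heart and 0.0749 times in liver, and in the iSuRe-HadCre groups 1.35 times in heart and 0.387 times in liver. Each group is 1 sample, so the difference between the tissues was not tested, and the interval of the iSuRe-HadCre heart ratio includes 1.

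A signal also lay outside the Cdh5 barcodes. There were 242 barcodes with 2 or more Npr3 UMIs, fewer than 3 Stab2 UMIs and no Cdh5 UMI. For comparison, 30 of 3918 globin-rich barcodes without Cdh5 (0.766%) held 2 or more Npr3 UMIs. The median of the 242 was 19183.5 UMIs, 174 were negative for all hashtags, and 24 carried the Control heart hashtag. Their endocardial list stood at 357 CPM, against 1560 CPM in Npr3 cells, and their hepatocyte list at 12379 CPM, against 6576 CPM.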

How the results depend on the processing

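Over 13 planned and 5 added settings, 1574 values were compared with those reported: 723 moved by less than their counting interval or by under 1.5 times for counts, 826 moved further and 25 turned direction. Of 980 ratios of the 70 named genes past the fold, 919 stayed past it in the same direction, 38 stayed in direction under it and 23 turned, and 49 genes were past the fold under every setting. The cause of the changes below was not tested, except that a change of the Npr3 limit or of the genes tested alters the set by construction.

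With at least 1 Npr3 UMI, shares of Npr3 cells in Control, iSuRe-Cre and iSuRe-HadCre were 10.4%, 18.2% and 11.7% in heart and 13.0%, 4.15% and 10.6% in liver, with 345 genes lower over the library, 149 lower in all 3 hearts, and 54 higher and 31 lower in both iSuRe hearts. With at least 3, Control and iSuRe-HadCre hearts were at 3.09% and 4.04%, the iSuRe-HadCre liver at 0.965%, the iSuRe-HadCre to Control ratio of Notch1 at 0.177, and 54 genes were lower in both iSuRe hearts. With at least 7, shares were 1.26%, 9.49% and 1.65% in heart and 1.57%, 0.112% and 0.643% in liver, with 1230 genes lower over the library and 313 higher and 464 lower in all 3 hearts. With at least 2 Cdh5 UMIs the Control liver was at 11.9%, and 34 genes were lower in both iSuRe hearts. Thinned to 2000 UMIs, shares in Control, iSuRe-Cre and iSuRe-HadCre were 1.12%, 6.92% and 1.43% in heart and 3.94%, 0.127% and 0.836% in liver, and thinned to 5000 UMIs each stayed within its counting interval. With at least 25 hashtag UMIs the Control liver was at 17.8% (8 of 45 barcodes) and 36 genes were lower in both iSuRe hearts. Without a haemoglobin limit the Control heart was at 2.72% and 46 genes were lower in both iSuRe hearts. With fewer than 6000 genes per barcode the Control heart was at 1.83%, the iSuRe-Cre ratio of Notch1 at 0.129, 345 genes were higher in all 3 hearts, and 144 were higher and 53 lower in both iSuRe hearts.

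A minimum of 50 UMIs per gene gave 972 higher and 1048 lower genes over the library and 200 higher and 189 lower in both iSuRe hearts. A mitochondrial limit of 10% gave 137 and 25 in both iSuRe hearts, leaving out hepatocyte-rich cells 48 and 55, and an HTODemux quantile of 0.95 gave 37 higher. The mean of CPM per cell gave 293 genes higher in all 3 hearts. Restricting to endocardial-like cells gave 1993 lower over the library, 387 higher and 733 lower in all 3 hearts, 25 lower in both iSuRe hearts, and a Notch1 ratio of 0.0617 for iSuRe-HadCre.

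Liver genes turned direction against Npr3-free barcodes without hepatocyte-rich cells, at 7 or more Npr3 UMIs and in endocardial-like cells, respectively: Serpina1e 0.0815, 0.0844 and 0.0833 (0.866 by the mean of CPM per cell), Afp 0.0787, 0.0378 and 0.0466, Serpinf2 0.151, 0.149 and 0.0589, Serpina6 0.0558, 0.0649 and 0.0560, Apom 0.0755, 0.0397 and 0.0490, and Alb 0.0818, 0.0282 and 0.0316. Ibsp was at 0.0388 with fewer than 6000 genes and 0.0567 in endocardial-like cells, and Nppa at 0.539 and 0.762 with at least 3 and 7 Npr3 UMIs. With fewer than 6000 genes, the Cdkn1a ratios to Control in Npr3 cells were 0.960 and 0.704. No paired analysis was possible because each group is 1 sample. The bins, the clusters, the limit of 7 UMIs, the thinning of shares and the leaving out of hepatocyte-rich cells were chosen after seeing the data.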
